A study of Mus musculus with 6 samples.

Results

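Genes of regulatory T cells were followed as a set of 8 in the thymus of RUNX2/MYC and wild-type (WT) mice: Foxp3, Ikzf2 (which encodes Helios), Ikzf4, Ctla4, Icos, Nrp1, Lrrc32 and Gpr83. They were listed by name, with earlier results of these data known, and all 8 were measured, each by 1 probe set that the annotation pairs with that gene alone, among 19938 genes paired in this way. RNA of whole thymus from 10-day-old mice was hybridised to Affymetrix MoGene-1 arrays, with 3 arrays per group, each labelled as a biological replicate. The RUNX2/MYC mice carried the CD2-Myc and CD2-Runx2 transgenes on a C57BL6/CBA background. Both transgenes are driven by CD2 control elements that are active in T cells and their lymphoid precursors. According to the study, RUNX2/MYC thymus at this age is premalignant and holds a large abnormal thymocyte population. The part of that population in the values below was not tested. The WT mice were C57/CBA controls of the same age without either transgene. The labels give no treatment, and thymus with a single transgene is outside this comparison. How mice were divided among the arrays is not given, so p-values measure only the spread between these arrays. The question asked of the 8 genes was whether Ikzf2 moved together with the other members in RUNX2/MYC thymus.

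Regulatory T cells restrain other T cells and arise in the thymus from developing CD4 cells that bind self-antigen strongly. Their identity rests on the transcription factor Foxp3, and Helios and Eos (Ikzf4) are zinc finger proteins of the Ikaros family that act with it. The surface proteins of the set, CTLA-4, ICOS, neuropilin-1, GARP and GPR83, are abundant on regulatory T cells, yet none of the genes is restricted to them. Helios is also found in other thymocytes that meet strong receptor signals, neuropilin-1 on endothelium and plasmacytoid dendritic cells, and GARP on platelets and endothelium.

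Ikzf2 was higher in RUNX2/MYC thymus and was the single member of the 8 called at an adjusted p under 0.05. Of all probe sets 1.80% were called in either direction and 1.68% higher. A fit to the 21789 probe sets paired with 1 symbol called a larger share, 1236 higher and 149 lower, with Ikzf2 again the single member. The log2 signal of Ikzf2 was 10.40, 10.36 and 10.62 on the RUNX2/MYC arrays, replicates 1 to 3, and 9.64, 9.64 and 9.84 on the WT arrays. Every RUNX2/MYC array lay above every WT array. The log2 fold change was 0.76 (standard error, SE, 0.11, 95% interval 0.50 to 1.02, limma adjusted p = 0.0283), a 1.69-fold difference of signal, and Ikzf2 ranked 305th by p among 35556 probe sets. The call was lost in 4 of the 6 fits that left out an array, and in each of those 4 3 to 4 probe sets in all were called higher. Leaving out replicate 2 or 3 of RUNX2/MYC gave a limma adjusted p of 0.119 or 0.127, and leaving out replicate 1 or 2 of WT one of 0.111 or 0.17, with log2 fold changes of 0.68 to 0.81. It also missed the threshold once the 75th percentiles of the arrays were aligned (log2 fold change 0.66, limma adjusted p = 0.0538). In RNA of whole thymus a larger number of Ikzf2-expressing cells and more Ikzf2 RNA per cell cannot be told apart.

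**Figure D1:**
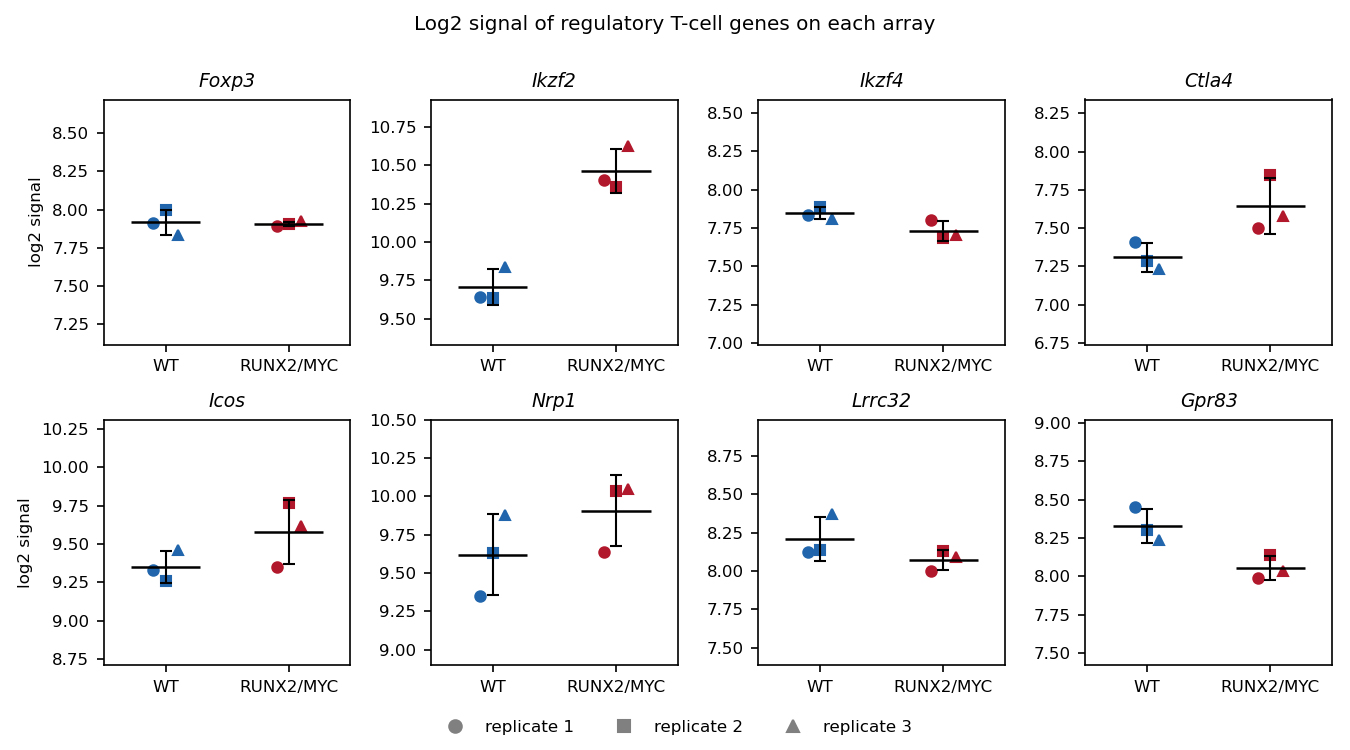
Log2 signal of the 8 regulatory T-cell genes (y axis, all panels 1.6 log2 units high) on each WT (blue) and RUNX2/MYC (red) array. Points are arrays, with the replicate number as the symbol, and bars are means ± SD (n = 3). The Ikzf2 points of the RUNX2/MYC arrays (10.36 to 10.62) all lie above those of WT (9.64 to 9.84), and the Foxp3 points of the groups coincide.

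Foxp3, the factor that defines the regulatory T-cell lineage, had nearly the same signal in both groups. Its log2 signal was 7.90, 7.91 and 7.92 on the RUNX2/MYC arrays and 7.91, 8.0 and 7.84 on the WT arrays. All 3 RUNX2/MYC arrays lay inside the range of the WT arrays. The log2 fold change was -0.0070 (95% interval -0.21 to 0.19, limma adjusted p = 0.963), so a difference beyond 1.14-fold upward or 0.867-fold downward lay outside the interval. The sign of this value turned under median centring (0.077), quantile normalization (0.018) and cyclic loess (0.011). The deposited values hold no detection call, so how far the Foxp3 signal stood above background is not known.

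The study asked about RUNX and MYC sites near promoters, so the reference windows of the 8 genes, 300 bases that run from upstream of an annotated start to just past it (RefSeq, GRCm38.p6), were read for these letters. Windows were held for 4 of the 8 genes, Foxp3 (2 starts), Ctla4, Nrp1 and Gpr83, and not for Ikzf2, Ikzf4, Lrrc32 or Icos. The study scored consensus motifs over wider regions around promoters, so this search of letters does not repeat its analysis. The RUNX letters TGTGGT or TGCGGT, on either strand, occur in 22.4% of all 32851 windows, and the MYC-type E-box CACGTG in 7.15%. Among the 5 windows of the set 1 held a RUNX match, TGCGGT at positions 138 to 143 of the Gpr83 window, and none held CACGTG. The match is a description of letters, not a site. The upstream Foxp3 window (chrX:7579426-7579725, + strand) is shown because it belongs to the defining gene of the lineage, and the Gpr83 window (chr9:14859960-14860259, + strand) because it has the match, in capitals.
Foxp3: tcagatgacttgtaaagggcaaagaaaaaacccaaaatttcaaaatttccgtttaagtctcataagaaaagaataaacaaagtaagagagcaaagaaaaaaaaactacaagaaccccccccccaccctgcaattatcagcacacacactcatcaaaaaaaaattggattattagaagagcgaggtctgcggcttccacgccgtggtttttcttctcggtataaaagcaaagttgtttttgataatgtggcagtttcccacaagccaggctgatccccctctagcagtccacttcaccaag
Gpr83: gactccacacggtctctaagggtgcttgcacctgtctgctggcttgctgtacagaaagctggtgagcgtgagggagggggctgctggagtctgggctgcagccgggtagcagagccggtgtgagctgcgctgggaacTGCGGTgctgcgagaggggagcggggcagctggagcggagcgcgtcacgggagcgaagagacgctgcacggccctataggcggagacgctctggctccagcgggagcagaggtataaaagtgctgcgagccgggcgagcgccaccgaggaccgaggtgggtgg

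Ikzf4, which encodes the Helios relative and Foxp3 partner Eos, had log2 signals of 7.80, 7.69 and 7.70 on the RUNX2/MYC arrays and 7.84, 7.89 and 7.81 on the WT arrays. The groups did not overlap, by a gap that was small beside the spread within each group. The log2 fold change was -0.11 (95% interval -0.31 to 0.082, limma adjusted p = 0.416).

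The inhibitory receptor gene Ctla4 and the costimulatory receptor gene Icos lie side by side on mouse chromosome 1, next to Cd28, with 0 protein-coding genes between neighbours in the reference annotation. Ctla4 had log2 signals of 7.50, 7.85 and 7.58 on the RUNX2/MYC arrays and 7.41, 7.29 and 7.23 on the WT arrays. The groups did not overlap, and the log2 fold change of 0.33 (95% interval 0.055 to 0.61) did not pass after adjustment (unadjusted p = 0.0252, limma adjusted p = 0.187). Icos had log2 signals of 9.35, 9.77 and 9.62 on the RUNX2/MYC arrays against 9.33, 9.26 and 9.46 on the WT arrays, and the groups overlapped through RUNX2/MYC replicate 1. Its log2 fold change was 0.23 (95% interval -0.073 to 0.53, limma adjusted p = 0.319). Without RUNX2/MYC replicate 2, which was the highest array for both genes, the log2 fold changes were 0.23 for Ctla4 and 0.14 for Icos. Cd28, the activating receptor of the same cluster, had a fitted difference of 0.078 in log2 signal (limma adjusted p = 0.648).

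Nrp1, the gene of the semaphorin and vascular growth factor co-receptor neuropilin-1, varied most within groups. Its log2 signal was 9.64, 10.03 and 10.05 on the RUNX2/MYC arrays and 9.35, 9.63 and 9.88 on the WT arrays. RUNX2/MYC replicate 1 lay at the level of WT replicate 2, and the log2 fold change of 0.29 (95% interval -0.12 to 0.69, limma adjusted p = 0.341) was about the size of the SD within each group (0.23 and 0.26, n = 3). Leaving out replicate 1 of RUNX2/MYC made it 0.42, leaving out replicate 1 of WT made it 0.15, and cyclic loess gave 0.14, none of which passed.

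Gpr83, a G protein-coupled receptor gene, had the lowest log2 fold change of the set. Its log2 signal was 7.99, 8.14 and 8.03 on the RUNX2/MYC arrays and 8.45, 8.30 and 8.23 on the WT arrays. The RUNX2/MYC arrays all lay below the WT arrays. The log2 fold change was -0.28 (95% interval -0.50 to -0.048) and did not pass after adjustment (unadjusted p = 0.0245, limma adjusted p = 0.185). Lrrc32, the gene of GARP, which holds latent TGF-beta on the cell surface, had log2 signals of 8.0, 8.13 and 8.09 against 8.12, 8.13 and 8.37. Its groups overlapped, and the log2 fold change was -0.13 (95% interval -0.38 to 0.11, limma adjusted p = 0.432), or -0.053 without WT replicate 3.

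Across the set 4 members lay above 0 and 4 below, where 42.3% of all probe sets lay above 0, and the median of the members was 0.11 against -0.051 over all probe sets. The arrays of the groups did not overlap for 4 of the 8, Ikzf2 and Ctla4 in the higher direction and Ikzf4 and Gpr83 in the lower, where 24.4% of all probe sets had no overlap (14.3% higher and 10.1% lower). At an adjusted p under 0.05 none of the 8 was lower, where 0.127% of all probe sets were called lower, and at an unadjusted p under 0.05 from limma 2 were higher and 1 lower, where 21.3% of all probe sets passed (12.0% higher and 9.27% lower). An analysis of variance with q values, the kind of test the study describes, was run here on the deposited values. It also called Ikzf2 as the single member (q = 0.0366), and with Benjamini-Hochberg adjustment in place of q values it called none (0.0901 for Ikzf2).

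**Figure D2:**
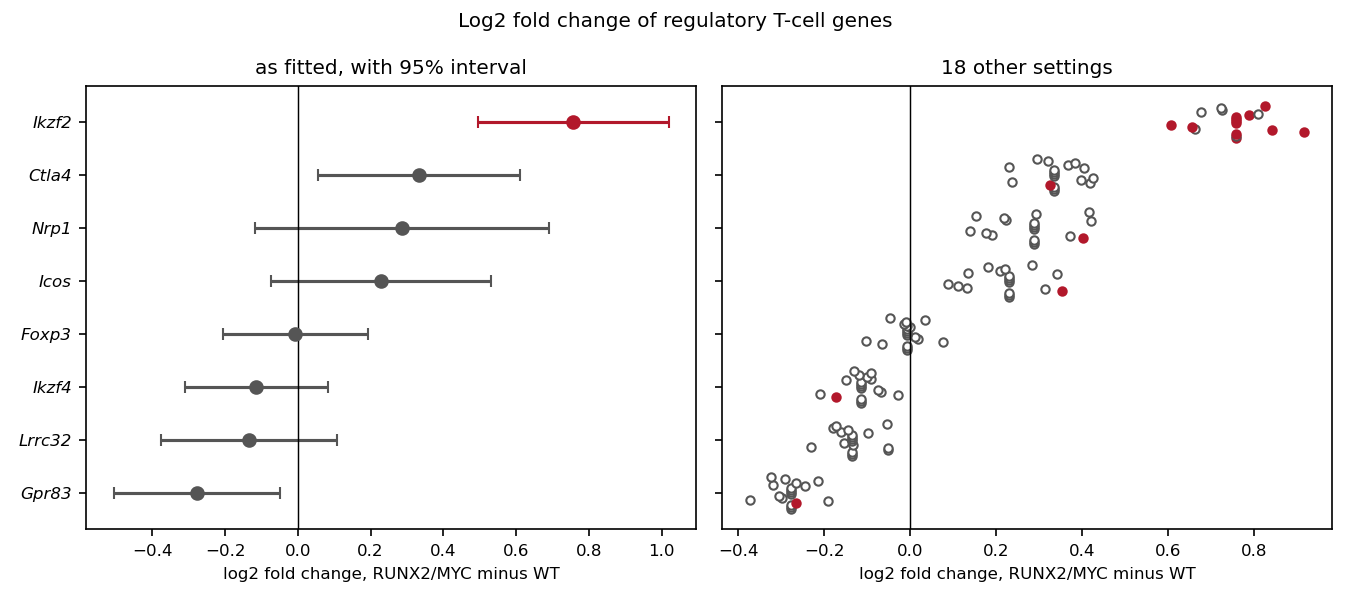
Log2 fold change of each gene, RUNX2/MYC minus WT (x axis), as fitted by limma with its 95% interval (left) and under 18 other settings of the processing (right, 1 point each). Red marks an adjusted p under 0.05. Ikzf2 lies between 0.61 and 0.92 in all settings, and the red points of 5 other genes all come from the setting with array weights.

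Ikzf2 was then set against each of the other 7 members within each array, which cancels any shift that both genes share. The log2 ratio of Ikzf2 to Gpr83 was higher in RUNX2/MYC by 1.03, that to Lrrc32 by 0.89, to Ikzf4 by 0.87, to Foxp3 by 0.76, to Icos by 0.53, to Nrp1 by 0.47 and to Ctla4 by 0.42. For all but Ctla4 every RUNX2/MYC array had a higher ratio than every WT array. Those 6 differences had p = 0.1 in an exact permutation test over the arrays (two-sided), which is the smallest value that 3 against 3 arrays allow, and p = 0.117 after adjustment over the 7 pairs. The ratio to Ctla4 overlapped between the groups (exact permutation test, p = 0.2). The gap between the groups was narrowest for Nrp1, at 0.038 log2 units, and widest for Lrrc32, at 0.71. All 7 differences stayed positive without any single array and under every normalization tried, with the smallest, 0.18, for Ctla4 under cyclic loess.

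None of the remaining Ikaros family genes measured beside Ikzf2 and Ikzf4 passed the test. Ikzf1 (Ikaros), which is needed for lymphocyte development, had log2 signals of 11.31 to 11.49 on the RUNX2/MYC arrays and 11.44 to 11.60 on the WT arrays. Ikzf3 (Aiolos) ran from 10.93 to 11.16 and from 10.93 to 11.20, and Ikzf5 (Pegasus) from 10.42 to 10.56 and from 10.29 to 10.48. The groups overlapped for each of the 3 genes. Their log2 fold changes were -0.073, 0.041 and 0.094, with 95% intervals of -0.30 to 0.15, -0.23 to 0.31 and -0.12 to 0.31, none of which reaches the lower end of the interval of Ikzf2 (0.50). The smallest adjusted p of the 3 was 0.527 from limma.

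**Figure D3:**
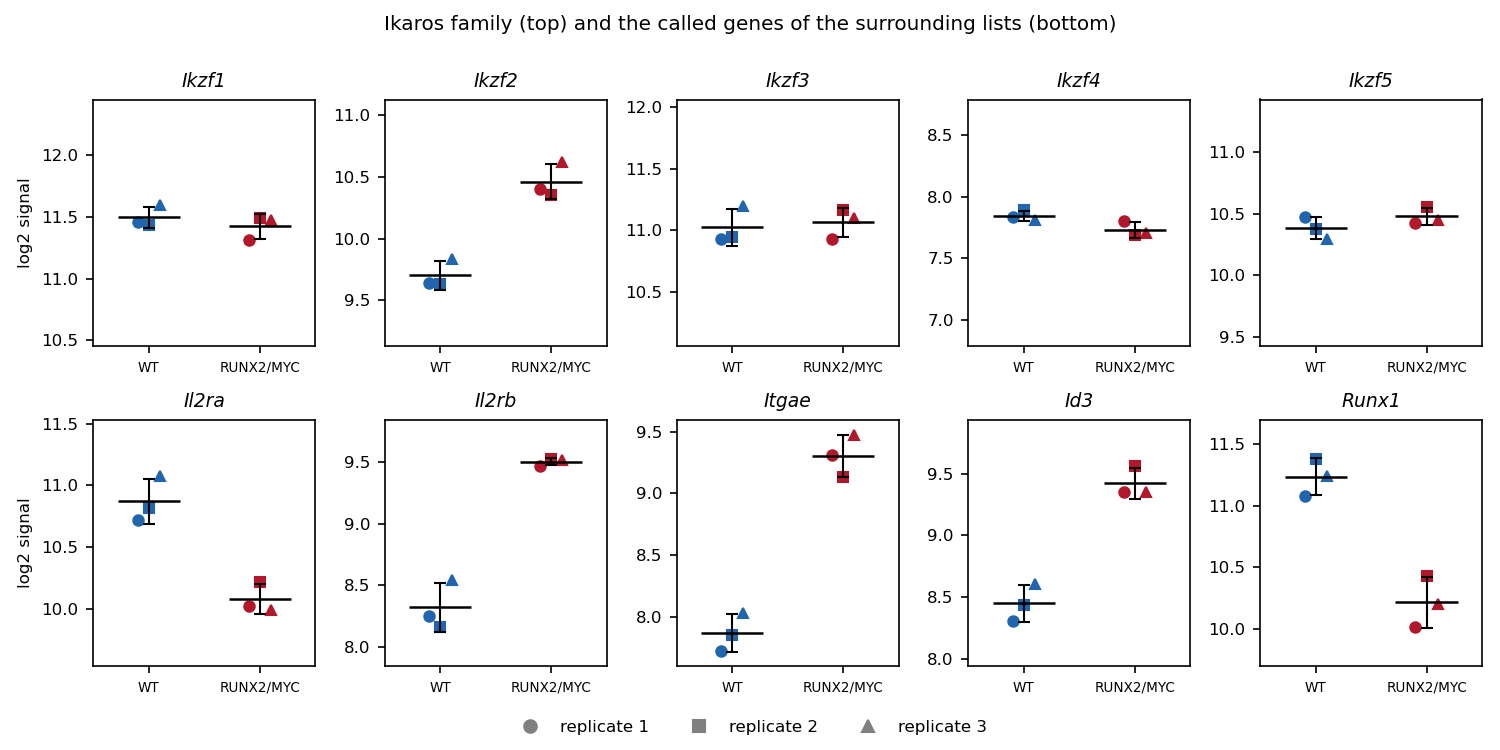
Log2 signal (y axis, all panels 2 log2 units high) of the 5 Ikaros family genes (top) and of the genes of the surrounding lists past the test (bottom) on each WT (blue) and RUNX2/MYC (red) array. Points are arrays, and bars are means ± SD (n = 3). In the top row the group means of Ikzf2 differ by 0.76, while the arrays of Ikzf1, Ikzf3 and Ikzf5 overlap.

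Among other genes of the regulatory T-cell program, Itgae rose and Il2ra fell. Of 25 measured genes that are usually higher in regulatory than in conventional T cells, 1 passed the test upward and 1 downward, and the median log2 fold change was -0.15, with 16 of the 25 below 0. The arrays of the groups did not overlap for 3 genes in the higher and 9 in the lower direction, and at an unadjusted p under 0.05 from limma 3 were higher and 8 lower, to be read against the shares of all probe sets given above. Itgae, the gene of the integrin CD103, which binds E-cadherin and is also carried by CD8 thymocytes, had log2 signals of 9.31, 9.13 and 9.47 on the RUNX2/MYC arrays and 7.72, 7.85 and 8.03 on the WT arrays. That is a rise of 1.44 (SE 0.13, limma adjusted p = 0.014). Il2ra encodes the alpha chain of the interleukin-2 receptor (CD25), on which regulatory T cells depend. It fell from 10.72, 10.82 and 11.07 on the WT arrays to 10.02, 10.22 and 9.99 on the RUNX2/MYC arrays. The log2 fold change was -0.79 (limma adjusted p = 0.0328). The groups did not overlap for Itgae or for Il2ra. In RNA of whole thymus, neither change can be assigned to regulatory T cells or to other thymocytes. Tnfrsf18 (GITR), which regulatory T-cell precursors carry, had a fitted difference of 0.022 in log2 signal (limma adjusted p = 0.936), and Izumo1r, the folate receptor 4 gene of regulatory T cells, of -0.30 (limma adjusted p = 0.175).

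In a list of 14 measured genes of interleukin-2 and STAT5 signaling, Il2ra was lower and Il2rb, the signaling chain shared with the interleukin-15 receptor, was higher. Il2rb had log2 signals of 9.47, 9.52 and 9.51 on the RUNX2/MYC arrays and 8.25, 8.16 and 8.54 on the WT arrays, which differ on the log2 scale by 1.18 (SE 0.12, limma adjusted p = 0.014). The remaining 12 genes did not pass, and the median of the list was -0.21, with 12 of the 14 below 0. The arrays of the groups did not overlap for 1 gene in the higher and 7 in the lower direction. At an unadjusted p under 0.05 from limma 1 was higher and 4 lower, to be read against the shares of all probe sets given above. Stat5a and Stat5b, which act on the Foxp3 locus downstream of this receptor, had log2 fold changes of -0.20 (limma adjusted p = 0.259) and -0.092 (limma adjusted p = 0.567).

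Of 25 measured regulators and partners of Foxp3, Runx1 was lower and none was higher, with a median log2 fold change of 0.020. The groups did not overlap for 1 of these genes in the higher and 5 in the lower direction, against 14.3% and 10.1% of all probe sets. Runx1 binds Foxp3 protein and the Foxp3 locus with its partner Cbfb. Its log2 signal was 10.01, 10.43 and 10.20 on the RUNX2/MYC arrays and 11.08, 11.38 and 11.24 on the WT arrays, which differ on the log2 scale by -1.02 (SE 0.14, limma adjusted p = 0.0234). Runx3 had a fitted difference of 0.51 in log2 signal (limma adjusted p = 0.0661) and Cbfb of 0.090 (limma adjusted p = 0.595). Of 16 genes of agonist selection, induced in thymocytes that bind self-antigen strongly, Id3, an inhibitor of E proteins, was higher (log2 fold change 0.97, limma adjusted p = 0.0168). None was lower past the adjusted threshold, and the median was 0.077. The groups did not overlap for 3 of the 16 in the higher and 1 in the lower direction. At an unadjusted p under 0.05 from limma 3 were higher and 1 lower, against 12.0% and 9.27% of all probe sets. The nuclear receptor gene Nr4a1, which reports receptor signal strength, had a fitted difference of 0.049 in log2 signal (limma adjusted p = 0.792).

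None of the 9 genes of the CD28 family and its ligands, the 16 of GARP and TGF-beta handling, or the 15 neuropilin ligands and partners passed in either direction, with medians of -0.058, 0.027 and -0.087. At an unadjusted p under 0.05 from limma these lists held 0 higher and 0 lower, 1 and 3, and 1 and 3. Of all probe sets 12.0% were higher and 9.27% lower at that p. The q values of the analysis of variance called 5 genes higher and 4 lower over all the surrounding lists together. Among all 35556 probe sets they called 1213 higher and 247 lower. The largest sizes in the 3 lists without a limma call were those of Cd80 (-0.14, limma adjusted p = 0.489), Furin (0.46, limma adjusted p = 0.0833) and Plxnd1 (-0.88, limma adjusted p = 0.0584). Cd80 is a ligand of CTLA-4 and CD28, Furin a protease that processes TGF-beta, and Plxnd1 a semaphorin receptor of double-positive thymocytes. The calls of Itgae, Il2ra, Il2rb, Runx1 and Id3 were each lost without replicate 2 or 3 of RUNX2/MYC and without replicate 1 or 2 of WT (largest adjusted p 0.11 for Itgae and Il2rb, 0.119 for Id3, 0.133 for Runx1 and 0.168 for Il2ra), and that of Il2ra under median centring as well (adjusted p = 0.0561).

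**Figure D4:**
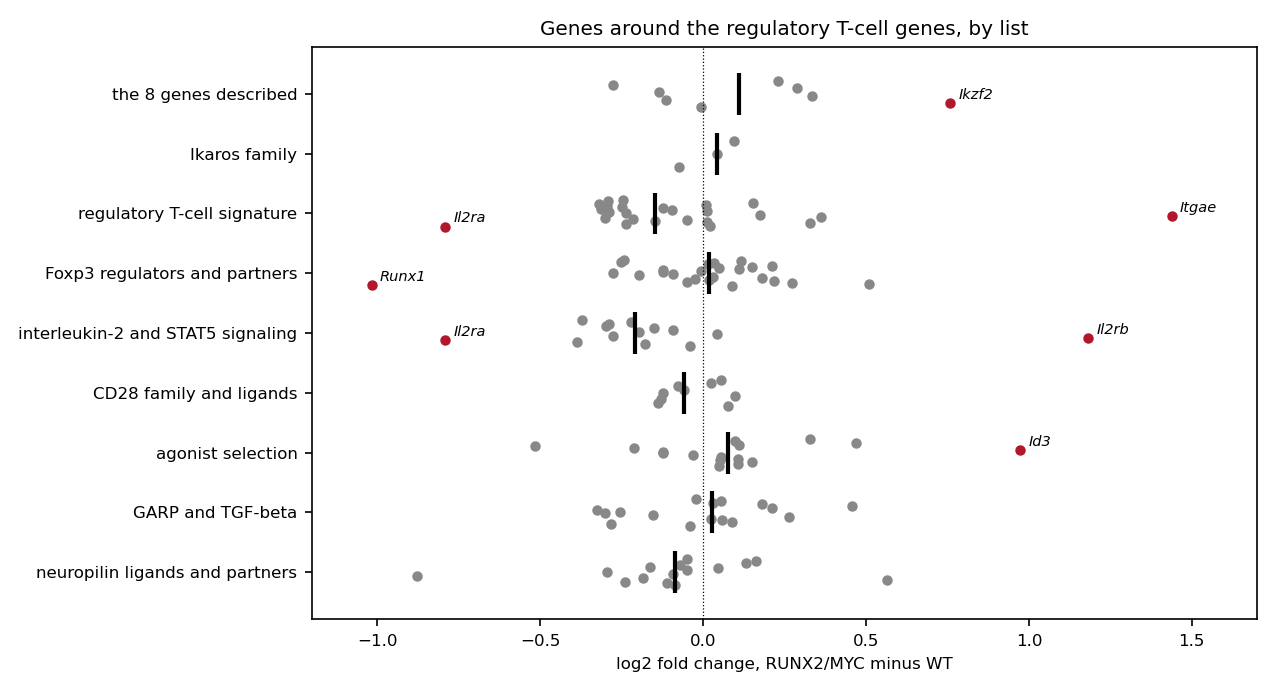
Log2 fold change, RUNX2/MYC minus WT (x axis), of the 8 genes described and of each measured gene of 8 surrounding lists. Points are genes, red with a name if past the test at an adjusted p of 0.05, and black bars are medians, which run from -0.21 for interleukin-2 and STAT5 signaling to 0.11 for the 8 genes. Il2ra belongs to both lists in which it is named.

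Markers of other cells that express members moved with the groups in part. Of 7 measured genes of gamma-delta and innate-like T cells, cells that can carry Helios, Maf was higher (log2 fold change 0.86, limma adjusted p = 0.0288) and none lower. The mean log2 signal of this list was 7.91 to 8.10 on the RUNX2/MYC arrays and 7.66 to 7.70 on the WT arrays. Its scavenger receptor gene Cd163l1 had the largest value, 1.68, with a wide spread (9.77, 9.19 and 10.53 against 8.35, 8.25 and 7.85; limma adjusted p = 0.0564), and the median of the list was -0.076. Of 12 measured genes of natural killer cells Nkg7 was higher (0.89, limma adjusted p = 0.0402), while the defining gene Ncr1 had a fitted difference of -0.31 in log2 signal (adjusted p = 0.162), and the list means overlapped (6.83 to 6.97 against 6.90 to 6.92). The part of such cells in the Ikzf2 value was not tested.

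For endothelium, which carries neuropilin-1 and GARP, none of 13 genes passed, and the list means were 7.74 to 7.95 on the RUNX2/MYC arrays and 7.82 to 7.98 on the WT arrays. None of 7 genes of megakaryocytes and platelets passed either (7.02 to 7.48 against 7.17 to 7.36). Of 15 genes of dendritic cells and macrophages none passed, but the list means did not overlap (8.21 to 8.24 against 8.39 to 8.46). The plasmacytoid dendritic cell gene Siglech had a fitted difference of -0.50 in log2 signal (limma adjusted p = 0.0623), and the part of such cells in the Nrp1 value was not tested. The 11 genes of thymic epithelium were likewise lower in list mean (9.16 to 9.23 against 9.44 to 9.53), with none past the test, and their part in the values of the 8 genes was not tested. Of 11 T-cell markers none passed, with list means of 11.55 to 11.79 and 11.67 to 11.82. Within that list the groups did not overlap for 2 genes in the lower and 2 in the higher direction, where 10.1% and 14.3% of all probe sets did not. Lower in RUNX2/MYC were the coreceptor gene Cd4 (log2 fold change -0.74, limma adjusted p = 0.091) and the recombinase gene Rag1 (-0.62, limma adjusted p = 0.0963). Higher were Cd3d (0.32, limma adjusted p = 0.18) and Zap70 (0.305, limma adjusted p = 0.178). The arrays overlapped for Cd8a (0.10) and Cd8b1 (0.0098). The part of thymocytes that carry these genes in the values of the 8 genes was not tested. No gene of the B-cell, mesenchyme, erythroid or adipocyte lists passed (limma adjusted p), and of these the B-cell list was lower in mean without overlap (7.37 to 7.54 against 7.57 to 7.67).

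Over the 6 arrays, the genes whose log2 signals ran most like those of Ikzf2, among 9968 genes of at least median mean signal, were Lcp1 (Pearson r = 0.997), Strip2 (0.996), Cmah (0.995), Atp8b4 (0.995) and Slc2a3 (0.995). These 6 points share the difference between the groups, so that r is a description. The genes most like Foxp3 were 1600014C10Rik (0.954), Txn1 (0.910), Gpr137 (0.894), E4f1 (0.891) and Kcnj10 (0.884). None of these changed by more than 0.029 in size, which follows from their choice by likeness to Foxp3, itself nearly equal between the groups. No gene named for Ikzf2 or for Foxp3 was a member of the set.

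The Runx2 signal was far higher in RUNX2/MYC, and the Myc signal was not. A probe set that the study's tables assign to Runx2 read 11.73 to 11.96 on the RUNX2/MYC arrays and 7.93 to 7.94 on the WT arrays. The Myc probe set read lower on every RUNX2/MYC array (10.51, 10.88 and 10.55) than on the WT arrays (11.0, 11.26 and 11.12), with a log2 fold change of -0.48 that did not pass (limma adjusted p = 0.119), and whether it reads RNA of the CD2-Myc transgene is not known. Along the main axis of variation over all probe sets (60.5% of the variance), RUNX2/MYC replicate 1 (-6.79) and WT replicate 3 (5.15) stood between RUNX2/MYC replicates 2 and 3 (39.4 and 45.2) and WT replicates 1 and 2 (-45.9 and -37.0). Without RUNX2/MYC replicate 1 the log2 fold change of Ikzf2 was 0.79 (limma adjusted p = 0.0433), and without WT replicate 3 it was 0.82 (adjusted p = 0.038). RUNX2/MYC replicate 2, the highest array for Ctla4 and Icos, was also highest for adipocyte genes, with a list mean of 8.32 against 6.75 to 7.21 on the other arrays, and its part in those values was not tested.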

How the data were processed

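The authors' deposited log2 signals of 35556 probe sets on 6 arrays were used as they stand. The submitters' processing notes name RMA (background correction, normalization between arrays, summary of probes) and Affymetrix Expression Console 1.4. The methods instead describe Partek software and a correction for GC content, and which of these made the values was not settled. The genome build is not given in the sources used here. Groups came from the genotype label. Differences (RUNX2/MYC minus WT) were fitted over all probe sets with limma 3.58.1 in R 4.3.3, with Benjamini-Hochberg adjustment and a threshold of 0.05. The number of arrays limits the precision. Of the probe sets, 21789 were paired with 1 symbol, 1621 with several and 12146 with none, and each gene was read from the probe set of highest mean signal over the 6 arrays among those paired with it alone. Beside the 8 genes, those named are the genes of each surrounding list past the threshold, or otherwise the one of largest change, the Ikaros family, Cd28 and the 5 most correlated with Ikzf2 and with Foxp3. Tnfrsf18, Izumo1r, Stat5a, Stat5b, Runx3, Cbfb, Nr4a1 and the marker genes were named after their values were seen. The members and lists were chosen with earlier results of these data known. The model was tested on simulated data, and 18 alternative settings were run (tests, array weights, scalings, filters, a replicate block and each array left out).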

Additional observations from a re-analysis of the deposited data

How the results depend on the processing

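The log2 fold change of Ikzf2 stayed positive under all 18 alternatives and past the threshold under 12. It missed it with Benjamini-Hochberg adjustment of the ordinary ANOVA (0.76, adjusted p = 0.0901) and 75th percentile centring (0.66, adjusted p = 0.0538), which left 0 members called higher, and over the arrays left out in turn it ran from 0.68 to 0.82 (0 to 1 members called higher, and 0 lower in each case). Foxp3 changed sign under median centring (0.077), quantile normalization (0.018) and cyclic loess (0.011), and ran from -0.047 to 0.035 over the arrays left out. Array weights, whose estimation stopped short of its tolerance and gave WT replicate 2 a weight of 6.21 and RUNX2/MYC replicate 1 one of 0.30, called 9165 probe sets higher and 12137 lower, with 4 members higher (Ikzf2, Ctla4, Nrp1 and Icos) and 2 lower (Ikzf4 and Gpr83). The surrounding lists together, with 3 genes higher and 2 lower, had 5 and 4 with q values, 0 and 0 with Benjamini-Hochberg adjustment of the ANOVA, 22 and 30 with array weights, 6 and 1 under median centring, 4 lower under quantile normalization and 4 lower under cyclic loess, and 0 to 4 higher and 0 to 2 lower over the arrays left out. With the replicate number as a block there were 7 and 4, and Ikzf2 stayed the single member called (adjusted p = 0.0125). Over all probe sets the block called 1654 higher and 763 lower. The numbers were not taken to pair the arrays, since the labels tie no number to a litter or batch. Deviations of same-numbered arrays from their group means correlated at 0.501, -0.148 and 0.606, and those of differently numbered arrays at -0.626 to 0.372. Whether a number marks a shared batch was not tested. The causes of the differences between settings were not tested either. The 596 higher and 45 lower probe sets numbered 1213 and 247 with q values, 162 and 33 with Benjamini-Hochberg adjustment of the ANOVA, 209 and 45 under 75th percentile centring, 1054 and 104 with a trend, 915 and 48 under median centring and 1236 and 149 among probe sets of 1 gene, while without RUNX2/MYC replicate 2 or 3 or WT replicate 1 or 2 there were 3 to 4 higher and 0 lower.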
